A study of Gossypium hirsutum with 12 samples.

Results

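Leaves of the upland cotton cultivar Sicot 53 were compared with leaves of the cultivar Sicala 45, both grown at 32 °C, the unstressed temperature of a study of heat tolerance in these cultivars. The comparison used 6 of the 12 arrays of the series, all those whose titles give 32 °C, 3 from Sicot 53 and 3 from Sicala 45. The other 6 arrays, 3 of each cultivar, came from a later batch of plants in the same cabinet, kept at 42 °C in the light, and they served here as a separate set of samples of the same pair of cultivars. All plants were Gossypium hirsutum grown in field soil and acclimated for 4 days in a cabinet at 32 °C in the light and 25 °C in the dark, which stayed unchanged for the 32 °C plants. The leaf taken was the third youngest fully expanded one, at the stage of the first flower bud, and the labels describe the tissue as all leaf cells. RNA was hybridised to an Affymetrix cotton array, on which a probe set is a group of short probes that together give the signal of 1 target. The labels give 3 leaf tissue samples per group without saying that each came from a separate plant, so p-values here reflect sample-to-sample spread that may be partly technical.

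Cultivars of a self-pollinating crop such as cotton are inbred lines that carry different alleles at many genes, and leaf transcript levels can differ between them without any treatment. Upland cotton is also a tetraploid, in which most genes are present as related copies from each ancestral genome. Short probes read the amount of a transcript and its match to the probe sequence together, so a signal that differs between cultivars can come from more transcript, from base differences under the probes, or from presence or absence of a gene copy. These cannot be told apart in the values used here. In whole leaves, fewer cells of a type and less RNA per cell cannot be told apart either.

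The 6 arrays were alike in their median signal. The trimmed mean signal, over the 2nd to 98th percentile, was 500 on each of them. Scaling of each array to 1 target fixes that value, so it is no measure of how alike the arrays were. The median signal over all probe sets other than the manufacturer's controls ranged from 96.4 to 109.7 in Sicot 53 and from 92.9 to 106.9 in Sicala 45. The correlation of log2 signals between arrays was 0.944 to 0.967 within Sicot 53, 0.964 to 0.970 within Sicala 45 and 0.941 to 0.974 between the cultivars, ranges that overlap. RCA1, the activase of the carbon-fixing enzyme Rubisco, lay between the 99.95th and 99.99th percentile of its array, and GOX, the glycolate oxidase of photorespiration, between the 88.7th and 93.5th. Genes named for cotton fibre, E6 and Fb2, were not at background, at the 71.9th to 86.6th and the 68.0th to 81.5th percentile. The 6 fibre marker probe sets, of 4 names, summed to 22819 to 27455 in Sicot 53 and to 22567 to 25747 in Sicala 45, and none was at 0. Most of that sum came from the 2 probe sets of FSLTP2, at 0.17 and 0.00 on the log2 scale of differences, while Fb2 was at -0.48 ± 0.29 without overlap, E6 at -0.38 ± 0.30 and CelA1 at -0.28 and 0.05. Of the seed markers, MatP7 lay between the 21.7th and 41.6th percentile and LEGB between the 42.6th and 61.2nd. No label gives a marker that would check the cultivar of an array. The poly-A spikes, bacterial RNAs added to the sample, averaged 586, 807 and 611 in Sicot 53, against 452, 580.0 and 558.5 in Sicala 45. All 3 Sicot 53 arrays were above all 3 Sicala 45 arrays, and the exact two-sided permutation p of 0.1 is the smallest that 3 against 3 arrays allow. The hybridization spikes, another set of controls, averaged 3896, 2758 and 2357 in Sicot 53, against 1113, 3501 and 2525 in Sicala 45 (exact two-sided permutation p = 0.5). Sicala 45 replicate 1 was thus far below the other arrays on these spikes.

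The leaves of the 2 cultivars differed strongly at a small number of probe sets. Of 16820 probe sets tested, 18 differed at a Benjamini-Hochberg adjusted p under 0.05 in limma, which is 0.107% of those tested. Of these, 9 were higher in Sicot 53 (0.0535%) and 9 were lower (0.0535%). The differences were between 2.13-fold and 37.1-fold in size, with a median of 3.39 on the log2 scale, against a median size of 0.18 over all tested probe sets. All fold changes are on the scale of log2(signal + 16), which understates the change of dim probe sets. The median signal over the 18 was 1066 in whichever cultivar was higher and 69.3 in the other. In each of the 18 the 3 arrays of Sicot 53 did not overlap the 3 of Sicala 45, which was so for 7.17% of all tested probe sets. None of the 18 has a gene listed in the probe annotation used here, so they are described by their probe set IDs and no role is given to them.

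**Figure D1:**
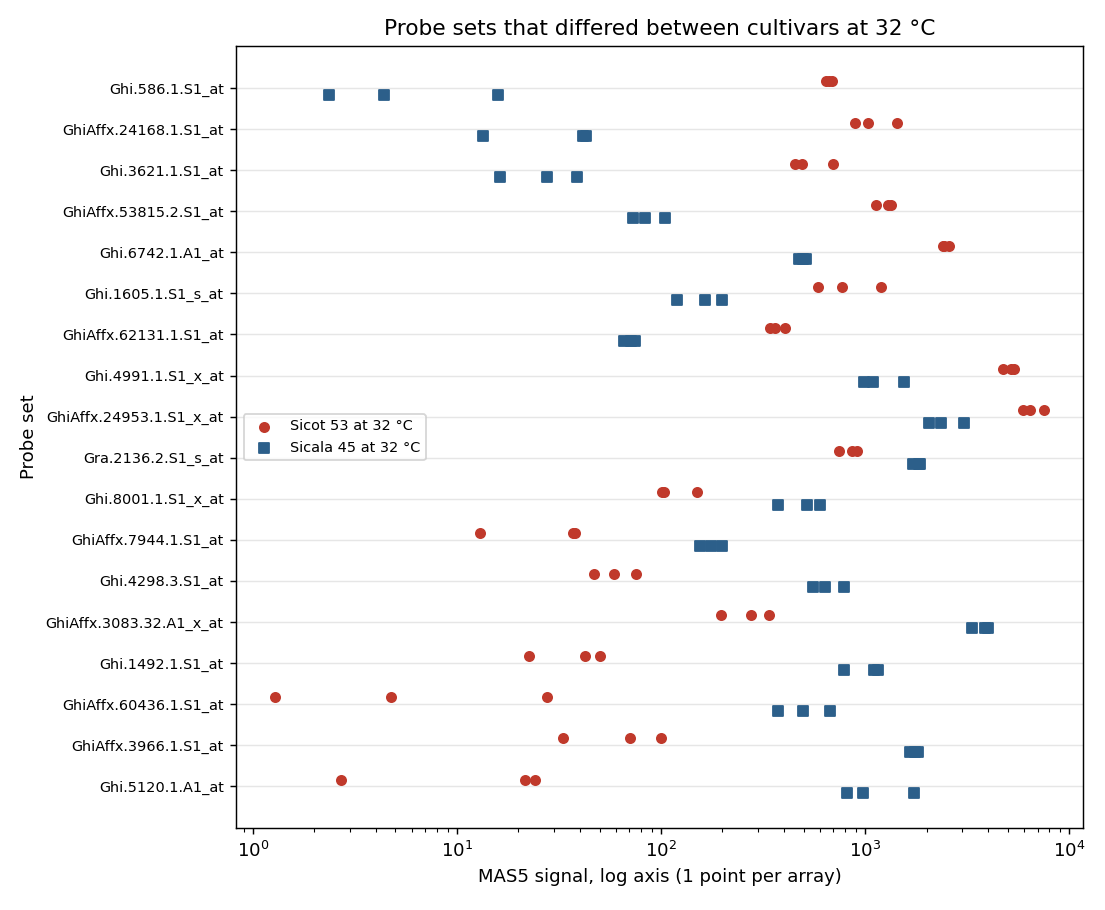
MAS5 signal of each of the 18 called probe sets on every array at 32 °C, on a log axis, with Sicot 53 above Sicala 45 in each row; points are single arrays. The 9 probe sets higher in Sicot 53 and the 9 lower in Sicot 53 have no overlap between cultivars.

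Among the 9 probe sets higher in Sicot 53, 4 were below the median signal of the array on all 3 Sicala 45 arrays. Ghi.586.1.S1_at had signals of 688, 667 and 640.3 in Sicot 53, against 2.37, 15.9 and 4.40 in Sicala 45. It had the greatest difference in this direction, 29.8-fold, a log2 difference of 4.90 ± 0.33 (SE; limma adjusted p = 1.8e-05). GhiAffx.24168.1.S1_at had 891, 1033 and 1430.3 in Sicot 53, against 13.4, 42.9 and 41.5 in Sicala 45, and was 24.0-fold higher in Sicot 53 with a limma adjusted p of 0.000477. Ghi.3621.1.S1_at had 699.6, 452 and 493 in Sicot 53, against 16.3, 38.9 and 27.7 in Sicala 45. For these 3 probe sets the signal in Sicala 45 was dim on every array and that in Sicot 53 was well above the array median on every array. GhiAffx.62131.1.S1_at had 407, 364 and 341 in Sicot 53, against 66.1, 71.6 and 74.3 in Sicala 45, a smaller difference of 4.45-fold that was tight within both cultivars. The limma adjusted p was 0.000344 for Ghi.3621.1.S1_at and 0.00446 for GhiAffx.62131.1.S1_at.

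The other 5 probe sets higher in Sicot 53 gave signal above the array median, on at least 1 array, in both cultivars. GhiAffx.53815.2.S1_at had 1340.4, 1126 and 1291 in Sicot 53, against 83.2, 105 and 72.8 in Sicala 45, 12.4-fold higher in Sicot 53 (limma adjusted p = 0.000187), with Sicala 45 near the array median. Ghi.6742.1.A1_at had 2565, 2398 and 2446 in Sicot 53, against 474, 515 and 497 in Sicala 45. Its arrays differed little within a cultivar, and its log2 difference of 2.28 ± 0.17 had a limma adjusted p of 2.83e-05. Ghi.4991.1.S1_x_at was bright in both cultivars, with 5164, 5359 and 4742 in Sicot 53, against 1095, 990.2 and 1557 in Sicala 45, and was 4.22-fold higher in Sicot 53 (limma adjusted p = 0.00105). Ghi.1605.1.S1_s_at had 769.7, 589 and 1190.4 in Sicot 53, against 199, 120.2 and 165 in Sicala 45. Its Sicot 53 arrays spread more widely than those of the other 8, and its limma adjusted p of 0.00627 became 0.0548 without Sicala 45 replicate 2. GhiAffx.24953.1.S1_x_at, the brightest of the 9, had 6402, 7549.9 and 5937 in Sicot 53, against 3066, 2342 and 2056 in Sicala 45, a log2 difference of 1.42 ± 0.21. Its limma adjusted p of 0.0176 was not under 0.05 when Sicot 53 replicate 1 or 2, or Sicala 45 replicate 2 or 3, was left out (highest adjusted p 0.138).

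The 9 probe sets lower in Sicot 53 included 5 that were below the array median on all 3 Sicot 53 arrays. Ghi.5120.1.A1_at had 21.6, 24.0 and 2.70 in Sicot 53, against 972, 814 and 1731 in Sicala 45, the greatest difference of all 18. It was 37.1-fold lower in Sicot 53, a log2 difference of -5.21 ± 0.36 (SE; limma adjusted p = 1.8e-05). Ghi.1492.1.S1_at had 22.6, 50.5 and 42.5 in Sicot 53, against 1105, 1153 and 786 in Sicala 45. GhiAffx.60436.1.S1_at had 1.28, 27.7 and 4.74 in Sicot 53, against 673, 497 and 374 in Sicala 45. In both, all 3 Sicot 53 arrays were dim and all 3 Sicala 45 arrays were well above the array median. The fold differences were 19.1 and 20.7, with limma adjusted p of 1.8e-05 and 0.000212. Ghi.4298.3.S1_at had 75.7, 46.9 and 58.7 in Sicot 53, against 789.9, 633 and 559 in Sicala 45, and was 8.87-fold lower in Sicot 53 (limma adjusted p = 0.00105). GhiAffx.7944.1.S1_at was the dimmest of the 18 in its higher cultivar, with 36.9, 13.0 and 38.0 in Sicot 53, against 155, 175 and 199 in Sicala 45. Its limma adjusted p of 0.0176 was not under 0.05 when any 1 of 5 arrays at 32 °C was left out, all but Sicot 53 replicate 3 (highest adjusted p 0.134).

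The remaining 4 probe sets lower in Sicot 53 were above the array median on at least 1 Sicot 53 array. GhiAffx.3966.1.S1_at had 33.0, 70.6 and 100.1 in Sicot 53, against 1809.9, 1656 and 1747 in Sicala 45, a difference of 22.2-fold (limma adjusted p = 1.8e-05). GhiAffx.3083.32.A1_x_at had 338, 277 and 197 in Sicot 53, against 3868, 4016 and 3334 in Sicala 45, 13.3-fold lower in Sicot 53. Both were far above the array median on all 3 Sicala 45 arrays. Ghi.8001.1.S1_x_at had 149, 104 and 101 in Sicot 53, against 375, 520.4 and 599 in Sicala 45, with a log2 difference of -1.93 ± 0.32 and a limma adjusted p of 0.0451. Gra.2136.2.S1_s_at had 911, 860.4 and 744 in Sicot 53, against 1840.2, 1856 and 1711 in Sicala 45, the smallest of the 18 differences, 2.13-fold, with a limma adjusted p of 0.0317. These last 2 were the least secure calls of the 18. Each lost its call when any 1 of 9 arrays was left out, including all 6 at 32 °C, with adjusted p up to 0.298 for Ghi.8001.1.S1_x_at and up to 0.245 for Gra.2136.2.S1_s_at, while the direction stayed. Of the 18 calls, 13 held whichever 1 of the 12 arrays was left out.

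The 18 were a mixture of probe set kinds. The first part of an ID is the family of sequence records from which the manufacturer designed it, and 9 of the 18 begin with Ghi, 8 with GhiAffx and 1 with Gra, against 46.6%, 32.9% and 10.4% of all tested probe sets. By suffix, 12 end in a plain _at, 2 in _s_at and 4 in _x_at, against 50.4%, 40.7% and 7.22% of those tested. Probe sets ending in _s_at or _x_at can hybridise to several related transcripts, so for those 6 the signals of gene copies may not be separate. For 6 of the 18, the array holds other probe sets whose ID has the same leading cluster number, 28 in all and 25 tested. None of the 25 was called, where 0.107% of all tested probe sets were, and 11 had the same sign as the called one. Most of the 25 belong to the cluster of 1 called probe set, GhiAffx.3083.32.A1_x_at, so these counts mainly describe that cluster.

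Probe sets of the same cluster number did not always differ together. GhiAffx.3083.32.A1_x_at has 23 others with its cluster number, of which 22 were tested, and it alone was called. The partner of Ghi.4991.1.S1_x_at, Ghi.4991.1.A1_at, had a log2 difference of -0.12. GhiAffx.53815.2.A1_at, a partner of GhiAffx.53815.2.S1_at, had 90.9, 118 and 84.5 in Sicot 53, against 26.1, 29.98 and 16.4 in Sicala 45. It lay in the same direction as its partner, without overlap, at a log2 difference of 1.51 ± 0.28 and a limma adjusted p of 0.128. Ghi.4298.1.A1_at, a dim partner of Ghi.4298.3.S1_at that the filter left out, had 7.23, 2.17 and 0.611 in Sicot 53, against 76.9, 28.6 and 27.3 in Sicala 45, also lower in Sicot 53 without overlap and with no test.

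**Figure D2:**
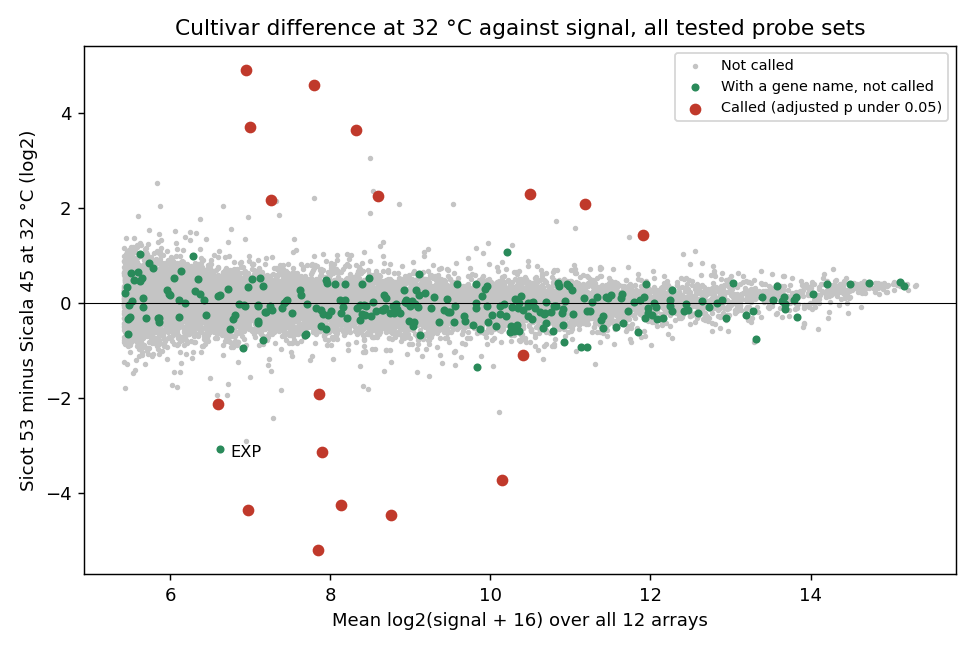
Log2 difference at 32 °C, Sicot 53 minus Sicala 45, against mean log2(signal + 16) over all 12 arrays, for 16820 tested probe sets; red points are the 18 called, green points the 258 with a gene name, none of them called. Most probe sets lie close to 0, with a median of 0.00, and the called ones extend from -5.21 to 4.90.

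The values next to the threshold show where the list ends. Just inside it lay Ghi.8001.1.S1_x_at and Gra.2136.2.S1_s_at. Just outside on the side higher in Sicot 53 were Ghi.6390.1.S1_s_at, GhiAffx.24025.1.S1_at and GhiAffx.53815.2.A1_at. Ghi.6390.1.S1_s_at had 6838, 8036 and 5508 in Sicot 53, against 2903, 2220.2 and 2652 in Sicala 45, a log2 difference of 1.38 ± 0.23 (limma adjusted p = 0.0582). GhiAffx.24025.1.S1_at had 437, 418 and 488 in Sicot 53, against 67.4, 49.7 and 167 in Sicala 45, with a log2 difference of 2.21 ± 0.37 and an adjusted p of 0.0582 in limma. Neither overlapped between cultivars. On the side lower in Sicot 53 the nearest were Ghi.5028.1.A1_at, at -1.25 ± 0.25, GhiAffx.14874.1.S1_at, at -1.59 ± 0.33, and Ghi.5776.1.S1_at, at -1.95 ± 0.42 on the log2 scale, with limma adjusted p of 0.195, 0.245 and 0.326.

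The same pair of cultivars at 42 °C used none of the 32 °C arrays as samples, although the model shared its estimate of spread over all 12 arrays. Again 18 of 16820 probe sets (0.107%) were called at 42 °C, 10 higher (0.0595%) and 8 lower (0.0476%) in Sicot 53. Of the 18 called at 32 °C, 15 were called at 42 °C, which is 83.3% of each list, 8 of them higher in Sicot 53 and 7 lower. All 18 kept their direction at 42 °C with no overlap between the cultivars, where 6.18% of tested probe sets did not overlap. Ghi.586.1.S1_at had 1052, 459 and 720.1 in Sicot 53, against 1.08, 3.14 and 10.2 in Sicala 45 at 42 °C, and Ghi.5120.1.A1_at had 18.8, 42.3 and 19.5 in Sicot 53, against 1591, 2208 and 2031 in Sicala 45. Ghi.6742.1.A1_at had 3883, 4697 and 3319 in Sicot 53, against 857, 856 and 842 in Sicala 45 at 42 °C. These 3 had log2 differences at 42 °C of 5.14 ± 0.33, -5.54 ± 0.36 and 2.18 ± 0.17.

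The 3 probe sets called at 32 °C and not at 42 °C were among the weaker calls. GhiAffx.24953.1.S1_x_at had a log2 difference of 1.23 ± 0.21 at 42 °C (limma adjusted p = 0.0563), GhiAffx.7944.1.S1_at one of -1.76 ± 0.31 (0.0727) and Ghi.8001.1.S1_x_at one of -1.34 ± 0.32 (0.424). The 3 called at 42 °C and not at 32 °C were GhiAffx.24025.1.S1_at, GhiAffx.29393.1.S1_s_at and GhiAffx.14874.1.S1_at, with log2 differences at 42 °C of 2.28, 2.95 and -2.17, against 2.21, 2.35 and -1.59 at 32 °C. A test of the difference itself, the cultivar difference at 42 °C minus that at 32 °C, called 0 probe sets in limma, with 321 (1.91%) at an unadjusted p under 0.05. Among the 18, the lowest unadjusted p of that test was 0.11, for GhiAffx.60436.1.S1_at, whose difference changed by 0.96 with a 95% interval of -0.25 to 2.17 on the log2 scale. That interval includes 0 as well as large changes. For this probe set the test thus showed neither a change of the cultivar difference between the temperatures nor its absence. The 42 °C plants were a later batch, so temperature and batch cannot be told apart in this test.

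**Figure D3:**
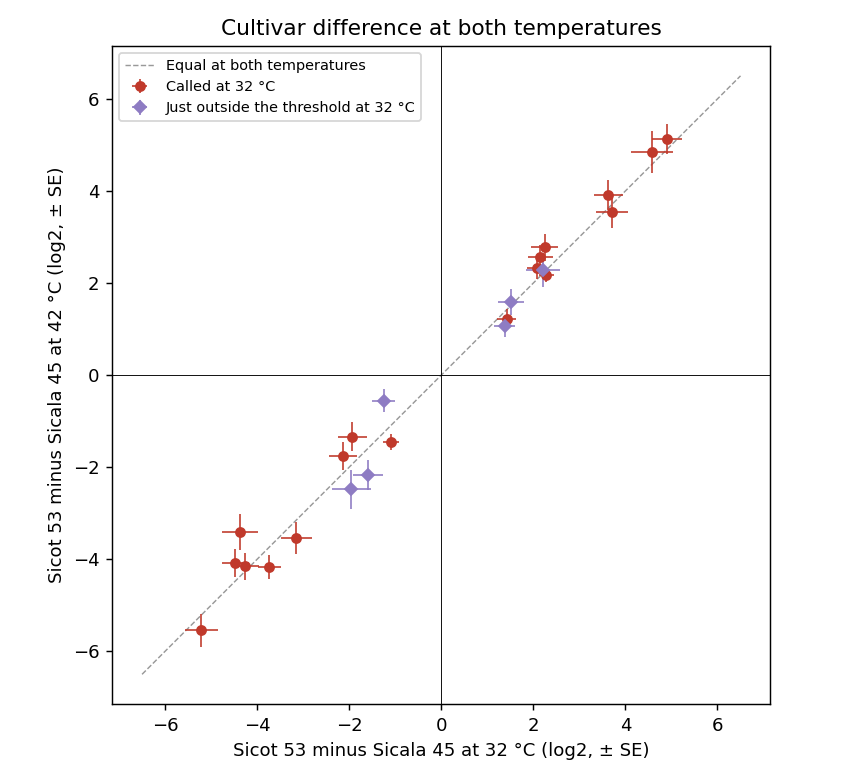
Log2 difference, Sicot 53 minus Sicala 45, at 42 °C against that at 32 °C, for the 18 probe sets called at 32 °C and the 6 just outside the threshold, with bars of ± SE and a dashed line of equal difference. All 18 called ones have the same sign at both temperatures.

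Genes with a name were described next, since none of the called probe sets had one. Of the tested probe sets, 258 carry a gene name, for 204 names, and none was called. Over all tested probe sets 0.107% were called, and at that share no call among 258 says little about named genes. At an unadjusted p under 0.05 there were 8 of the 258, 1 higher and 7 lower in Sicot 53, which is 3.10% against 2.13% of all tested, where 0.957% were higher and 1.18% lower. The cultivars did not overlap for 17 (6.59%, against 7.17% of all tested), 3 higher and 14 lower, while 3.15% of all tested were apart with Sicot 53 higher and 4.02% with Sicot 53 lower. The median log2 difference was -0.08 over the named probe sets, 103 of which were positive and 155 negative, against 0.00 over all tested. For 135 of them (52.3%) the 95% interval lay within a 2-fold difference in either direction.

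The named gene with the lowest p was EXP, listed at LOC107891056, an expansin. Expansins are proteins that loosen the cell wall so that it can extend as a cell grows. Its probe set GhiAffx.26845.1.S1_at had 6.42, 20.2 and 37.4 in Sicot 53, against 151, 317 and 464 in Sicala 45. The cultivars did not overlap, and the log2 difference of -3.09 ± 0.67 had a 95% interval of -4.54 to -1.64 but a limma adjusted p of 0.33. At 42 °C it had 11.5, 36.4 and 17.7 in Sicot 53, against 60.4, 285 and 629.5 in Sicala 45, again without overlap (log2 difference -2.75 ± 0.67, limma adjusted p = 0.503). A second probe set of the same name, Ghi.704.1.A1_s_at, had 89.9, 47.2 and 164 in Sicot 53, against 81.6, 228 and 245 in Sicala 45, a log2 difference of -0.79 ± 0.85 at 32 °C and of 0.13 ± 0.85 at 42 °C. The probe sets of EXP thus gave differences of unlike size at 32 °C and of unlike sign at 42 °C. The adjusted p of GhiAffx.26845.1.S1_at at 32 °C was under 0.05 in 3 alternative fits, 0.00366 with array weights, 0.0347 with the replicate number as a block and 0.0294 without Sicala 45 at 42 °C replicate 1. None of the other alternative fits called it.

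Other named genes with low p and lower values in Sicot 53 did not pass the test, and their limma adjusted p was at or near 1. Sus1, a sucrose synthase, which splits sucrose and supplies the sugar nucleotide used to make cellulose, had 1387, 1374 and 1936 in Sicot 53, against 3374, 2561 and 3094 in Sicala 45. Its groups did not overlap at a log2 difference of -0.95 ± 0.31, and its difference at 42 °C was -0.12. MADS-3, a MADS-box transcription factor, had 93.5, 87.0 and 169 in Sicot 53, against 212, 173 and 179 in Sicala 45, a log2 difference of -0.67 ± 0.26 without overlap. At 42 °C MADS-3 again did not overlap, at -0.77 ± 0.26. The alpha-tubulins TubA2 and F3 had log2 differences of -0.41 ± 0.17 and -0.84 ± 0.37, CRK1 one of -0.55 ± 0.20 and Di19-2, of a drought-induced zinc-finger family, one of -0.53 ± 0.23. ACO1, an oxidase that makes ethylene from its precursor, had -0.61 ± 0.32 at 1 probe set. The other probe set of that name, of another locus, had 0.40 ± 0.67. RHM3, which makes the rhamnose donor for pectin, had -0.47 ± 0.22, and SCP -0.43 ± 0.20 on the same scale.

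Of the named genes with the lowest p on the other side, KCS38 alone had an unadjusted p under 0.05. KCS38, a 3-ketoacyl-CoA synthase of the kind that elongates very long chain fatty acids, had 63.99, 132 and 75.5 in Sicot 53, against 65.3, 19.5 and 32.1 in Sicala 45. The groups just overlapped, at a log2 difference of 0.99 ± 0.43, and only 1 of its 4 probe sets was positive. The peroxidase pod10 had 1699.9, 2459.5 and 1339 in Sicot 53, against 408, 748 and 1959.8 in Sicala 45, and MPK3, a mitogen-activated protein kinase, had 41.7, 107 and 27.0 in Sicot 53, against 15.0, 2.70 and 45.9 in Sicala 45. Their differences of 1.06 ± 0.58 and 1.03 ± 0.61 came with wide spread inside Sicot 53 or Sicala 45. Of the 5 probe sets named MPK3, 4 were positive, all of the same locus, and the negative one was of another locus. CSD2a, a copper-zinc superoxide dismutase that removes superoxide, had 20177, 20710.0 and 18425 in Sicot 53, against 12643, 16875 and 15744 in Sicala 45, without overlap at 0.40 ± 0.19. RCA1 had 45772, 45752 and 29529 in Sicot 53, against 20925, 40740.0 and 29430.0 in Sicala 45, which overlapped, at 0.43 ± 0.28. The transcription factor NAC2 had 0.40 ± 0.24. RAV, another one, had 0.83 ± 0.57 at a dim probe set, with 30.6, 58.1 and 2.94 in Sicot 53, against 2.95, 13.7 and 4.72 in Sicala 45. The other 2 probe sets of RAV, which were brighter, had 0.39 ± 0.54 and 0.17 ± 0.26. GRPL1 had 0.38 ± 0.24, its other 2 probe sets being at -0.55 and -0.15. CBP2 had 0.42 ± 0.28 and CPA-FAS-3, a cyclopropane fatty acid synthase, 0.34 ± 0.24, all of these with a limma adjusted p that rounds to 1.

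Genes were also described in lists by function, none of which held a called member. The 31 lists held 174 tested probe sets, too few for the absence of calls to say much where 0.107% of all tested were called. The list with the most members covered the cell wall, with 32 probe sets of 21 names, such as expansins, xyloglucan endotransglucosylases, sucrose synthases and fasciclin-like proteins. Of its 32 probe sets, 3 were positive and 29 negative, with a median log2 difference of -0.28, while 49.6% of all tested probe sets were negative. At an unadjusted p under 0.05 there were 2 members, both lower in Sicot 53, and 3 did not overlap. Over all tested probe sets, 2.13% had such a p and 7.17% did not overlap. By array, the median of the 32, each relative to its mean over the 6 arrays at 32 °C, was -0.06, -0.60 and 0.20 in Sicot 53, against -0.04, -0.03 and 0.59 in Sicala 45. The cultivars overlapped on this measure, and 1 array of each lay far from the other 2. Without Sicot 53 replicate 2 the median difference was -0.14 with 21 negative, and without Sicala 45 replicate 3 it was -0.12 with 24 negative. Scaling to the poly-A spikes gave -0.60, while it moved the median of all tested probe sets to -0.31. The ratio of 3′ to 5′ signal of the ubiquitin 11 control, a sign of RNA integrity, was 6.39, 5.16 and 4.73 in Sicot 53, against 6.14, 5.82 and 10.7 in Sicala 45 (exact two-sided permutation p = 0.3), and Sicala 45 replicate 3 was highest on both measures. The part of RNA integrity in the list's values was not tested. The 6 fibre marker probe sets, 2 of which, those of CelA1, are also in the cell wall list, had a median difference of -0.14 at 32 °C, 3 positive and 3 negative. Their median by array was 0.07, 0.07 and -0.07 in Sicot 53, against 0.15, -0.01 and 0.29 in Sicala 45, again highest on Sicala 45 replicate 3, and the part of such transcripts in the cell wall values was not tested. At 42 °C the cell wall median was -0.17, with 10 positive and 22 negative, against a median of -0.03 over all tested probe sets.

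Members of the cell wall list varied from array to array. A probe set of XTH, a xyloglucan endotransglucosylase that cuts and rejoins wall polymers, Ghi.5744.2.S1_s_at, had 471, 631 and 533 in Sicot 53, against 938, 818 and 3675 in Sicala 45. Sicala 45 replicate 3 alone was far above the rest. The expansin EXPA3D, among the brightest of the list, had 10156, 10010.0 and 6324 in Sicot 53, against 8684, 21955 and 16936 in Sicala 45 at Ghi.249.1.A1_at. Its values overlapped, at -0.78 ± 0.51, and its second probe set GhiAffx.40054.1.S1_at had -0.13 ± 0.45. FLA13, a fasciclin-like arabinogalactan protein, had 129, 12.7 and 189 in Sicot 53, against 188, 109 and 225 in Sicala 45, with Sicot 53 replicate 2 far below the other arrays.

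**Figure D4:**
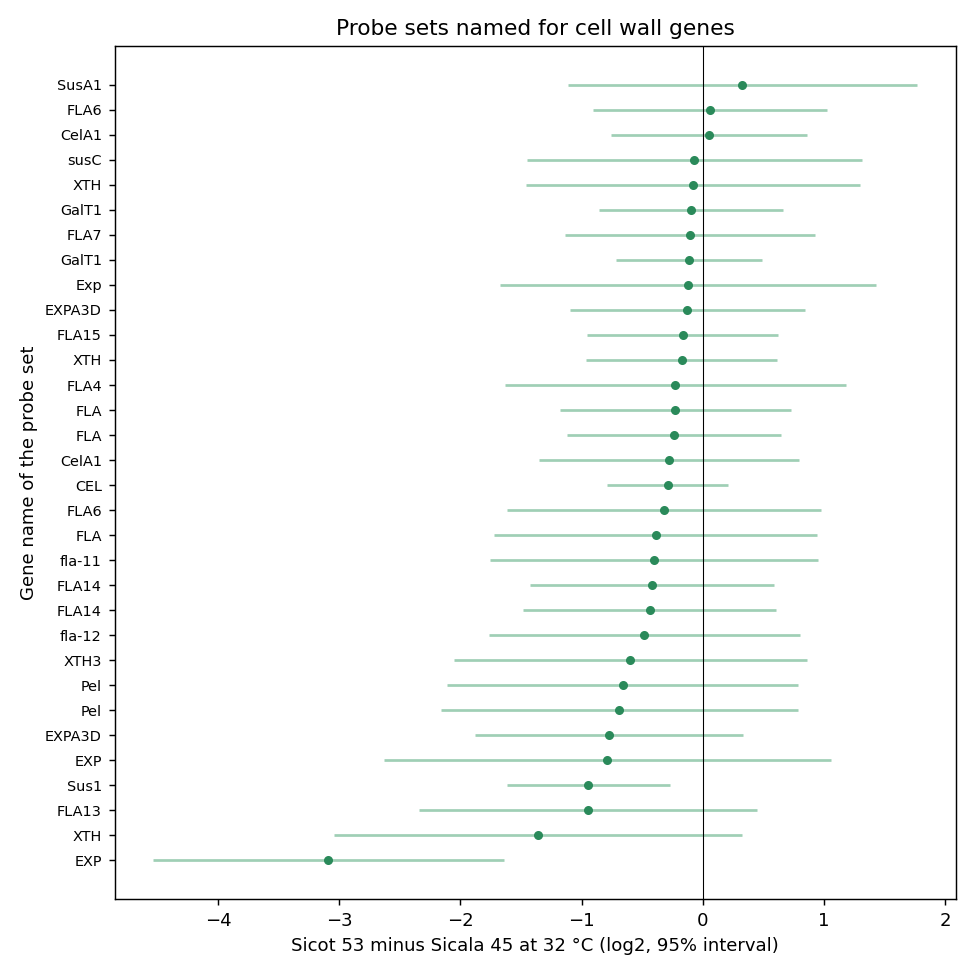
Log2 difference at 32 °C, Sicot 53 minus Sicala 45, with its 95% interval, for each of the 32 probe sets named for cell wall genes, 1 row per probe set. Of the 32 points 29 are below 0, and the intervals exclude 0 for 2, a probe set of EXP and that of Sus1.

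The cytoskeleton list, of tubulins, actins and related genes, had 1 positive and 13 negative of 14 probe sets at 32 °C, with a median of -0.20. By array its median was -0.11, -0.35 and 0.14 in Sicot 53, against -0.04, 0.08 and 0.30 in Sicala 45. The cultivars overlapped, with Sicot 53 replicate 2 lowest and Sicala 45 replicate 3 highest. Sicala 45 replicate 3 had the highest ubiquitin 11 and actin ratios at 32 °C, and Sicot 53 replicate 2 the next highest actin ratio. The part of RNA integrity in these values was not tested. At 42 °C the list had 12 positive and 2 negative, with a median of 0.10, against -0.03 over all tested probe sets. Leaving out 1 array at a time moved the 32 °C median between -0.38 and -0.06. Of its members, F3 (Ghi.1314.1.S1_x_at) had 1806, 1007 and 2193 in Sicot 53, against 2112, 2592 and 4220.3 in Sicala 45, which overlapped, and the other 2 probe sets of F3 were at 0.73 and -0.06. TubA2 had 1015, 879 and 970.0 in Sicot 53, against 1127, 1439 and 1260.4 in Sicala 45, without overlap between cultivars.

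Lists of regulators held values of both signs and none of their members passed the test. NAC factors, plant transcription factors with many roles in stress and ageing, had 5 positive and 3 negative of 8, from -0.26 to 0.45, of which NAC7 turned to -0.05 under poly-A scaling. The AP2, ERF, DREB and RAV factors had 5 positive and 4 negative of 9, from -0.34 to 0.83, the highest being the dim probe set of RAV. Their medians were 0.17 and 0.12, against 0.00 over all tested probe sets. Genes of ethylene synthesis and response had 5 positive and 3 negative of 8, and the ACS probe set Ghi.23.4.A1_at, for the enzyme that makes the ethylene precursor, had 105, 84.1 and 68.2 in Sicot 53, against 39.4, 38.1 and 69.3 in Sicala 45. WRKY, HD-Zip and other factors had 1 positive and 4 negative of 5, and the kinases and phosphatases 7 positive and 4 negative of 11. The brassinosteroid and sterol list had 1 positive and 4 negative of 5, all 5 with a 95% interval within 2-fold, and the positive one, SMT2-2, was -0.05 under poly-A scaling.

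Metabolic lists were small, and none had a called member. Of the photorespiration and antioxidant enzymes, 3 were positive and 1 negative of 4. GOX had 1807, 2532 and 1886 in Sicot 53, against 1608, 1625 and 1485 in Sicala 45 (log2 difference 0.38 ± 0.29), and CAT2, a catalase that breaks down the hydrogen peroxide GOX makes, had 30688, 34083 and 20146 in Sicot 53, against 15198, 29717 and 20245 in Sicala 45 (log2 difference 0.40 ± 0.30). GOX and CSD2a did not overlap, the only 2 of this list of 4, while 7.17% of all tested probe sets did not overlap. Class III peroxidases had 3 positive and 3 negative of 6. For the flavonoid enzymes, DFR, which makes the precursors of anthocyanins and tannins, had 7574, 2535 and 7117 in Sicot 53, against 7128, 1523 and 5220.0 in Sicala 45. Replicate 2 was the lowest in both cultivars, and the SE of the difference was 1.12. The chalcone synthases CHS2, CHS6 and CHS3 had differences of 0.17, 0.15 and -0.06, and poly-A scaling turned CHS2 to -0.14 and CHS6 to -0.17. The lipid desaturase, transfer and wax list had 4 positive and 8 negative of 12.

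Large but variable differences were more frequent than calls. At least 2-fold differences were seen at 185 tested probe sets, 102 higher and 83 lower in Sicot 53, of which 167 were not called. At least 4-fold differences were seen at 28, of which 13 were not called, and 6 of those 13 did not overlap. For 9897 probe sets (58.8%) the 95% interval lay within a 2-fold difference in either direction. The median SE was 0.32 on the log2 scale, so for many probe sets a 2-fold difference was below what 3 arrays per cultivar could show.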

How the data were processed

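RNA from 12 leaf samples was hybridised to 12 Affymetrix arrays, 3 in each of 4 groups of cultivar and temperature, matched to groups by their titles. The deposited values are linear intensity values, 1 per probe set and array, and MAS5 is the tool named, without its version, per the submitters' processing notes. A trimmed mean of 500 on every array shows that each had been scaled to 1 target. Other steps are not given in the sources used here, and detection calls were not used here.

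From the 24132 probe sets, 103 controls were left out, and so were the dimmest 30% of the other 24029 by mean log2(signal + 16) over the 12 arrays, leaving 16820. All 12 arrays entered 1 linear model with a mean per group, in limma 3.58.1 in R 4.3.3 (lmFit, eBayes with an intensity trend), two-sided, with Benjamini-Hochberg adjustment over all tested probe sets and a threshold of 0.05. Errors are SEs of the model. Python 3.11.15 and matplotlib 3.10.9 drew the figures. The model was tested on simulated data. Controls were compared with an exact permutation test. Arrays give no read depth, and their number limits the precision.

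Names of genes were taken from the platform's probe annotation, joined by locus to RefSeq genes of Gossypium_hirsutum_v2.1. Of all probe sets, 697 had 1 locus, all of which matched, 46 had several and 23389 had none listed. A name was held for 318, after 6 marker names were set aside. The genes named in the text are every called probe set, the 10 names of lowest p in each direction, up to 3 members of lowest p of a list, and the 3 probe sets just outside the threshold in each direction. The probe sets set beside a called one with the same cluster number, and the other members of a named gene, were chosen after their values were seen. Members and the 31 lists were chosen with earlier results of these data known. Lists were collected by name patterns, and lists not described held no called member either. Alternatives covered normalization (quantile, median, poly-A spikes), pseudocount, filter, trend, array weights, arrays in the fit, replicate block and each array left out.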

Additional observations from a re-analysis of the deposited data

How the results depend on the processing

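The direction of all 18 calls at 32 °C held under every alternative in which they were tested, and the number of calls, 18, lay between 13 and 20 over the fits that left out 1 array (7 to 11 higher and 6 to 10 lower in Sicot 53). It was 19 with quantile normalization, 17 with median centring, 15 with poly-A spike scaling, 18 and 19 with a pseudocount of 1 and 64, 17 without a filter, 17 with a 50% filter (where 1 call was not tested), 17 without the trend and 13 with the 6 arrays of 32 °C alone. Array weights gave 35 calls at 32 °C, 17 higher and 18 lower in Sicot 53, including all 18, with 30 at 42 °C and 23 at both temperatures. Without 1 array, 15 to 21 were called at 42 °C and 13 to 16 at both. The test of the difference between temperatures called 0 to 1, the 1 without Sicala 45 at 42 °C replicate 3. Replicate numbers were not taken to pair the samples, because not every same-numbered pair correlated above 0.1. Deviations of same-numbered arrays correlated at -0.12, 0.45 and 0.36 at 32 °C and at 0.41, 0.39 and -0.16 at 42 °C. Those of differently numbered arrays correlated at -0.45 to 0.14 at 32 °C and at -0.61 to 0.42 at 42 °C. These values do not settle whether the numbers pair the samples. With the replicate number as a block 16 were called at 32 °C, 15 of them among the 18. Among uncalled genes the sign turned under poly-A scaling for NAC7 (-0.0518), SMT2-2 (-0.0525), CHS2 (-0.140), CHS6 (-0.165) and FSLTP2 (-0.144), and under quantile normalization for FSLTP2 (-0.0665). With 1 array left out, the difference ranged from -0.00769 to 0.513 for SMT2-2, from -0.243 to 0.930 for DFR, from -0.0838 to 0.463 for CHS2 and from -0.519 to 0.928 for CHS6. The causes were not tested. Dim signals and 3 arrays per group limit the precision.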

Other observations

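The brightest leaf transcripts read higher on average in Sicot 53 at 32 °C, by an amount that depended on the arrays used and on the normalization. Over the 100 probe sets with the highest mean signal, a group chosen after the values were seen, the median log2 difference at 32 °C was 0.32, and 97 were positive. The highest signal on an array was 52186, 51114 and 33458 in Sicot 53, against 24448, 48204 and 35711 in Sicala 45, which overlap. Sicala 45 replicate 1 was lowest on this measure and on the hybridization spikes. The part of that array in the difference was not tested. Over the fits that left out 1 array, the median of the 100 ranged from 0.11 to 0.53. It was lowest without Sicala 45 at 32 °C replicate 1, with 83 positive, and highest without Sicala 45 at 32 °C replicate 2. It was 0.01 after quantile normalization, with 58 positive, and 0.01 after scaling to poly-A spikes, with 52 positive. RCA1, CAT2 and CSD2a are bright genes whose differences were positive at 32 °C and did not pass the test.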
